A study of Mus musculus with 6 samples.

Results

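The interleukin-1 (IL-1) family was followed through 10 genes that encode its ligands, its receptors and its natural inhibitors, namely *Il1a*, *Il1b*, *Il1rn*, *Il1r1*, *Il1r2*, *Il1rap*, *Il18*, *Il18bp*, *Il33*, and *Il1rl1*. They were chosen by name and not by their measured values, though with earlier results of these data known, from 46078 genes counted in each library. Tissue came from young adult male wild type mice of the C57BL/6J strain, for which the records give an age of 3 months. Every mouse had a stroke, made per the study's methods by permanent occlusion of the distal middle cerebral artery followed by hypoxia, so the controls are the uninjured side of stroked brains and not naive cortex. Infarcts were identified by eye and dissected 7 weeks later, and the equivalent regions of the contralateral cortex served for comparison. The records list 3 infarct and 3 contralateral libraries and state neither a treatment nor whether an infarct and a cortex came from the same mouse. The study's methods describe tissue from mice given vehicle or the oligosaccharide HPβCD, and which of these, if any, applied to the 6 libraries is not stated in the records. The study reports sequencing of HPβCD-treated tissue for aged mice only. It names no treatment for its comparison of young infarcts with contralateral cortices. If an infarct and a cortex shared a mouse, the main test, which treats the 6 libraries as independent, ignored that pairing. The *p* values measure the spread between libraries of a region, which may be technical where these did not come from separate mice.

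IL-1α, IL-1β, IL-18, and IL-33 are cytokines made without a classical secretion signal. IL-1β and IL-18 are made as precursors that caspase-1 cuts inside inflammasomes, whereas IL-1α and IL-33 can act as alarm signals when a damaged cell releases them. Each ligand binds a receptor chain, which IL-1α and IL-1β share, and then recruits a partner chain. MyD88 and IRAK kinases then pass the signal to NF-κB. The family also carries brakes, which are an antagonist that occupies the receptor (IL-1Ra, encoded by *Il1rn*), a decoy receptor (*Il1r2*), and a soluble binding protein (*Il18bp*). In the brain, microglia and infiltrating myeloid cells are the known sources of IL-1, and oligodendrocytes and astrocytes of IL-33.

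Gene counts totaled 12146959 to 13427057 in infarcts and 11943570 to 19933962 in contralateral cortices. Values are given as CPM, counts brought to a common library size by the TMM method, and calls come from the quasi-likelihood test of edgeR on the 15554 genes that passed a filter on low counts. A gene was called when it differed by more than 1 on the log2 scale and its *p*, adjusted over all tested genes by the Benjamini-Hochberg method, was below 0.05. All 10 members passed that filter. In bulk tissue, fewer cells of a type and less RNA per cell cannot be told apart. The neuronal genes *Rbfox3*, *Snap25*, *Syt1*, *Slc17a7*, *Gad1*, *Map2*, and *Nefl* were all downregulated in infarcts, where their summed expression was 636 to 1650 CPM compared with 9000 to 9830 CPM in contralateral cortices, so the tissue labels matched this set of markers.

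The promoters of the 5 genes that encode the ligands and IL-1Ra are shown because 4 of these genes rose in infarcts and 1, *Il18*, did not differ detectably. RefSeq promoters on GRCm38.p6 were found for all 10 members, as 15 windows because some genes have several starts, and the most upstream start of each gene is printed. Each line holds the 250 bases before the start, read 5′ to 3′ on the strand of the gene. Capitals mark matches on either strand to the NF-κB letters (GGG, any 5 bases, CC), the AP-1 letters TGANTCA, the C/EBP letters TTGCNNAA, the PU.1 letters GAGGAA, the ISRE letters (GAAA, any 2 bases, GAAA) or the TATA box letters TATAAA.
Il1a chr2:129309973-129310222, minus strand: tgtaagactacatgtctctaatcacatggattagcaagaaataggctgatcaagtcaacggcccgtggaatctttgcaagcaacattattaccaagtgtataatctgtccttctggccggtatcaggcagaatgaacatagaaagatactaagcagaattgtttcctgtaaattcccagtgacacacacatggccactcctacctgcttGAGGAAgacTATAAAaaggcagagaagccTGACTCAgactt
Il1b chr2:129371140-129371389, minus strand: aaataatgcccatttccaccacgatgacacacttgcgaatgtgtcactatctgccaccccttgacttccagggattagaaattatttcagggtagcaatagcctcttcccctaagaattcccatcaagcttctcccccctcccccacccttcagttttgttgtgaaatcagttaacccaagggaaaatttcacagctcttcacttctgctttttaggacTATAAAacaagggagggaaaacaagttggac
Il1rn chr2:24336610-24336859, plus strand: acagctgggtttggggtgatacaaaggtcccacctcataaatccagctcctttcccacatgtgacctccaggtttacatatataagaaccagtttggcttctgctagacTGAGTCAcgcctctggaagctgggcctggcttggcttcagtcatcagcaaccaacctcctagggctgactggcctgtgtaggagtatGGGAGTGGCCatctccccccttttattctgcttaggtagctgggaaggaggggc
Il18 chr9:50554450-50554699, plus strand: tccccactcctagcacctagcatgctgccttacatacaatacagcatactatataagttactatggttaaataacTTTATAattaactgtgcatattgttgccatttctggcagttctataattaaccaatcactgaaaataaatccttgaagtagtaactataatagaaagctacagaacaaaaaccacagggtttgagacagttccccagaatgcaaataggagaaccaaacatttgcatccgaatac
Il33 chr19:29924863-29925112, plus strand: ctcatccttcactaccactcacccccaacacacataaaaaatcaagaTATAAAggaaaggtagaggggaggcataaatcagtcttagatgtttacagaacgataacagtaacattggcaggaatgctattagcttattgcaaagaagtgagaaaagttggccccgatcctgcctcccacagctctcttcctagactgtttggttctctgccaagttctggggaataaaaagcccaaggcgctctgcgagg

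The promoters of *Il1a* and *Il1b* each held a TATA box match whose first base lay 32 and 31 bases before the start. *Il1a* also held a PU.1 match 41 bases and an AP-1 match 12 bases before the start, and *Il1rn* held an AP-1 match at 141 and an NF-κB match at 54 bases before it. The *Il18* window held a TATA box match at 175 bases and no match to the other letters. Over the 15 windows of the family, TATA box letters occurred in 5, NF-κB letters in 4, C/EBP letters in 4, AP-1 letters in 2, PU.1 letters in 1, and ISRE letters in 0. Among 32851 mouse promoter windows of the same length, these letters occurred in 12.4%, 45.8%, 9.56%, 6.75%, 23.3%, and 2.98%, respectively. Some windows of *Il1rn* overlap, a match is a description of letters and not of binding, and the counts carry no test.

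Of the 10 members, 8 were upregulated in infarcts and 0 were downregulated. Over all tested genes, 25.7% were called higher and 20.9% were called lower. For the same 8 members, every infarct library lay above every contralateral library, an arrangement found for 37.6% of all tested genes, and no member showed the opposite arrangement, found for 34.7%. The median log2 fold change of the members was 3.36, compared with 0.03 over all tested genes. The exceptions were *Il18* and *Il1rap*, whose regions overlapped.

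**Figure D1:**
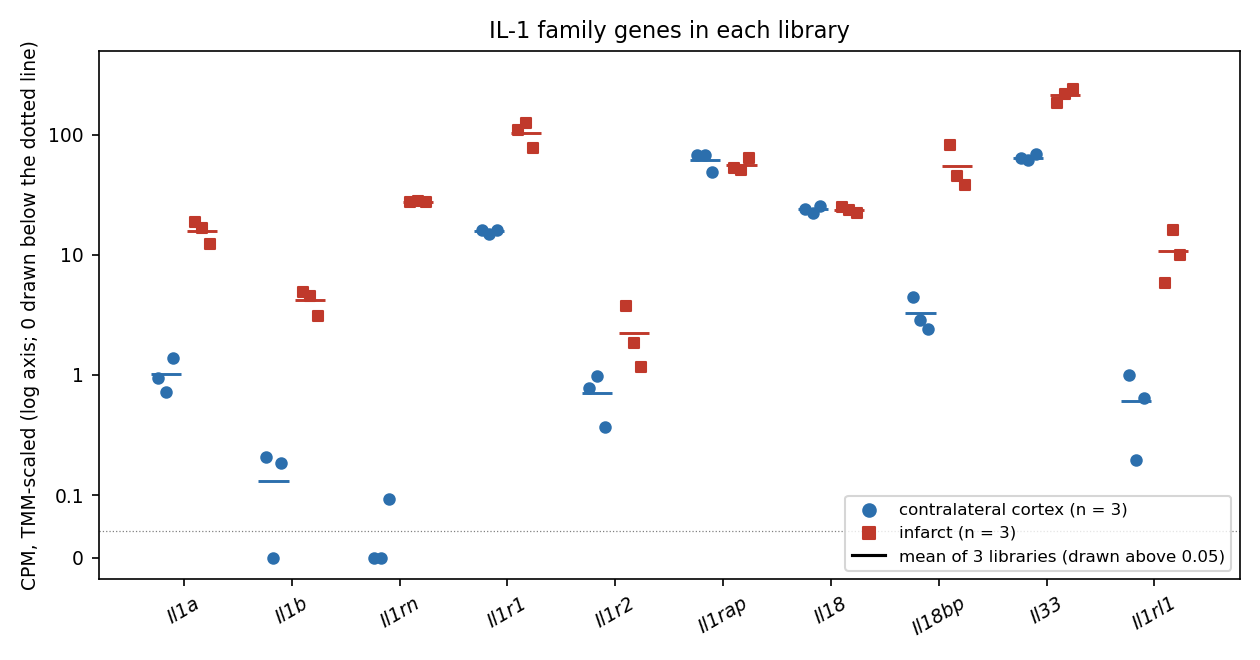
Expression of the 10 IL-1 family genes in each library, as TMM-scaled CPM on a log axis, with contralateral cortices as blue circles, infarcts as red squares and the mean of 3 libraries as a line. The infarct libraries lie above the contralateral libraries for 8 genes, and both groups lie between 22.3 and 25.3 CPM for *Il18*.

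Both IL-1 agonists were expressed at low levels and were upregulated. *Il1a* (ENSMUSG00000027399, GRCm38 chromosome 2, 129299610 to 129309972), which encodes IL-1α, had 18.6, 16.7, and 12.2 CPM in infarcts 1, 2, and 3, against 0.94, 0.716, and 1.38 CPM in contralateral cortices 1, 2, and 3. The lowest infarct thus stood well above the highest contralateral cortex. *Il1a* rose by 3.99 ± 0.30 on the log2 scale (± standard error; edgeR, adjusted *p* = 2.98e-06). *Il1b* (ENSMUSG00000027398, chromosome 2, 129364570 to 129371139), which encodes IL-1β and lies 55 kilobases from *Il1a*, had 62, 62, and 45 counts in infarcts, against 4, 0, and 2 counts on the contralateral side. That corresponds to 4.19 ± 0.986 CPM (SD, *n* = 3) and 0.131 ± 0.114 CPM. Its fold change of 29.8 had a 95% interval of 11.7 to 75.8, and the log2 fold change ranged from 4.32 to 5.57 as single libraries were left out, with the highest value without contralateral cortex 1. Exons of an uncharacterized gene on the other strand, *Gm14023*, cover 11.2% of the exon bases of *Il1a*, and that gene had at most 5 counts in any library.

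*Il33* (ENSMUSG00000024810, chromosome 19, 29925114 to 29960718), which encodes a nuclear cytokine that is released from injured cells, had the highest level per kilobase of the 10 members in infarcts. It had 184, 219, and 240 CPM in infarcts 1, 2, and 3, against 63.5, 61.3, and 68.8 CPM on the contralateral side. The contralateral values lay close together and all infarct values were higher. The fold change was 3.32 (95% interval 2.63 to 4.20, adjusted *p* = 7.15e-06, edgeR). Markers of the glia that express *Il33* moved in part with it. Of 7 oligodendrocyte genes, 4 were upregulated, and their summed expression was 4340, 5000, and 6970 CPM in infarcts 1, 2, and 3, in the same order as *Il33*, and 2170 to 2600 CPM in contralateral cortices. Of 7 astrocyte genes, *Gfap* and *Aqp4* were upregulated and *Slc1a2*, a glutamate transporter, was downregulated, and the other 4 were not called. The direction of their sum turned on *Slc1a2*, with 5100 to 7590 CPM in infarcts compared with 13500 to 14400 CPM for all 7 genes, and 2720 to 3670 CPM compared with 1400 to 1710 CPM without *Slc1a2*. Across infarcts 1, 2, and 3, the astrocyte sum (5100, 5430, and 7590 CPM) and the neuronal sum (636, 900, and 1650 CPM) also had the order of *Il33*. This order was therefore not particular to oligodendrocyte genes. The part of these cell types in the change of *Il33* was not tested.

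*Il18* (ENSMUSG00000039217, chromosome 9, 50554827 to 50581840), which encodes the ligand that drives interferon-γ production by T and NK cells, had 25.2, 23.4, and 22.5 CPM in infarcts, against 24.0, 22.3, and 25.3 CPM on the contralateral side. The values of both regions were interleaved. The fold change was 0.993 with a 95% interval of 0.784 to 1.26 (adjusted *p* = 0.957, edgeR). With library totals instead of TMM, the median over all genes moved by 0.20 on the log2 scale and the value of *Il18* became 0.19, so no direction can be given. Among homeostatic microglial genes, *P2ry12*, *Siglech*, and *Sall1* were not called either, whereas *Csf1r*, *Tmem119*, and *Cx3cr1* were upregulated.

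Because genes differ in length, the ligands were compared with each other as CPM per kilobase of merged exon. In contralateral cortices, *Il18* and *Il33* had nearly equal levels of 23.2 ± 1.44 and 22.3 ± 1.33 CPM per kilobase (SD, *n* = 3), with overlapping ranges. In infarcts, *Il33* reached 74.2 ± 9.88 CPM per kilobase and *Il18* stayed at 23.0 ± 1.36, with no overlap. As a share of the 4 agonist transcripts per kilobase, *Il33* rose from 47.9% to 49.1% in contralateral cortices to 63.6%, 69.3%, and 73.8% in infarcts 1, 2, and 3, and *Il18* dropped from 49.9% to 50.8% to 19.3% to 24.4%. *Il1a* made up 5.48% to 9.38% of the agonist transcripts in infarcts, and *Il1b* made up 1.43% to 2.58%. *Il1a* thus stood above *Il1b* in each of the 3 infarcts, at 8.01 ± 1.65 compared with 2.20 ± 0.517 CPM per kilobase. These shares describe transcripts and were not tested.

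**Figure D2:**
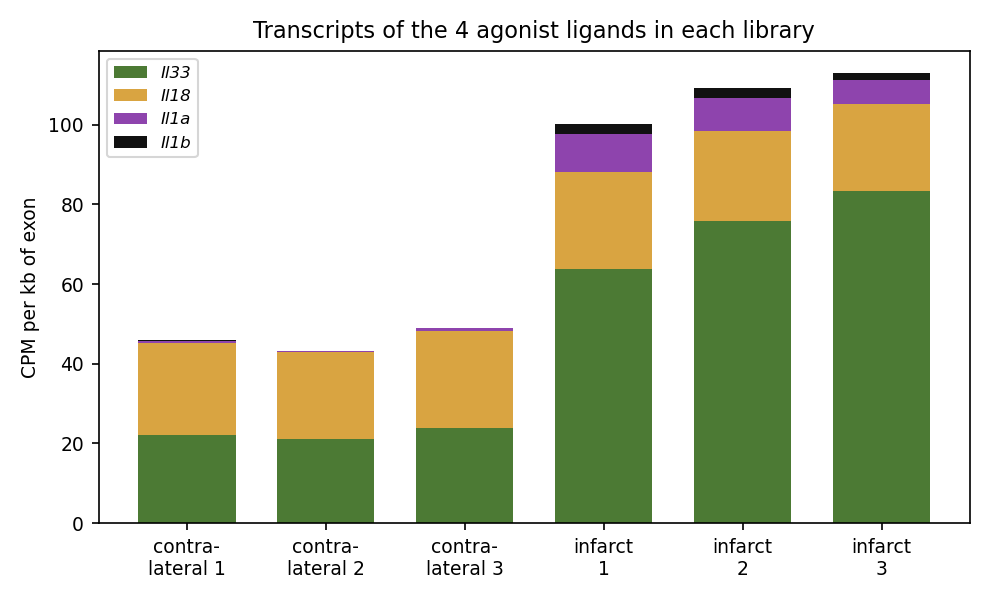
Transcripts of the 4 agonist ligands in each library, stacked as CPM per kilobase of merged exon. The stacks sum to 43.3 to 49.1 in contralateral cortices and reach at most 113 in infarcts, and *Il33* (green) makes up most of the infarct stacks.

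Both soluble inhibitors were upregulated. *Il1rn* (ENSMUSG00000026981, chromosome 2, 24336853 to 24351494), which encodes IL-1Ra, had 343, 386, and 400 counts in infarcts 1, 2, and 3, against 0, 0, and 1 count on the contralateral side. The contralateral cortices were thus nearly empty of this transcript, and the infarct values of 27.3, 28.3, and 27.3 CPM were nearly the same. Infarct *Il1rn* was therefore higher by at least 132-fold (edgeR, adjusted *p* = 1.88e-07). This bound sets each contralateral library to 3 counts and covers counting error only. Gene counts do not separate the secreted form of IL-1Ra from its intracellular forms.

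*Il18bp* (ENSMUSG00000070427, chromosome 7, 102014885 to 102018690), which encodes the soluble binding protein that captures IL-18, had 82.6, 45.0, and 38.2 CPM in infarcts, against 4.49, 2.86, and 2.40 CPM on the contralateral side. Infarct 1 stood well above infarcts 2 and 3. *Il18bp* rose by 4.06 ± 0.37 on the log2 scale (edgeR, adjusted *p* = 2.21e-05), and by 3.66 when infarct 1 was left out. Infarct 1 also had the highest summed expression of T cell genes, at 157 CPM compared with 57.4 and 39.6 CPM in infarcts 2 and 3, and of B and plasma cell genes, at 2510 CPM compared with 1070 and 415 CPM. The same held for macrophage genes (8920, 7670, and 5350 CPM in infarcts 1, 2, and 3) and for neutrophil, microglial, and endothelial genes. Sums of mast cell, astrocyte, oligodendrocyte, neuronal, and fibroblast genes were highest in infarct 2 or 3. The part of any of these cells in the level of *Il18bp* was not tested. The opposite-strand gene *Numa1* shares 2.64% of the exon bases of *Il18bp* and had 427 to 1122 counts per library. Because the strand setting of the counting is not stated, reads of *Numa1* in that stretch cannot be told apart from those of *Il18bp*.

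Ratios within a library, which do not depend on the scaling between libraries, were used to set inhibitors beside ligands. With counts per kilobase and 0.5 added to each count, the ratio of *Il1rn* to *Il1b* was 1.89, 2.13, and 3.03 in infarcts 1, 2, and 3, so the antagonist transcript exceeded that of IL-1β in each infarct. The ratio of *Il1rn* to *Il1a* was 0.525, 0.606, and 0.796, below 1 in each infarct. This side of 1 depends on the merged exon lengths of 5535 bases for *Il1rn* and 1974 bases for *Il1a*, since by counts alone *Il1rn* exceeded *Il1a* in each infarct, with 343, 386, and 400 counts compared with 233, 227, and 179. In contralateral cortices, *Il1rn* set to 3 counts would give at most 0.0594, 0.0973, and 0.0713 for this ratio, lower than in any infarct. The contralateral ratio to *Il1b* rests on 0 to 4 counts of either gene and is not interpreted. *Il18bp* to *Il18* was 1.11, 0.656, and 0.578 in infarcts, against 0.0640, 0.0441, and 0.0329 on the contralateral side, a 16.6-fold difference between the means on the log2 scale. For the ratios of *Il1rn* to *Il1a* and of *Il18bp* to *Il18*, the regions did not overlap, with *p* = 0.1 each in an exact two-sided permutation test, the smallest *p* that 3 libraries against 3 allow.

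**Figure D3:**
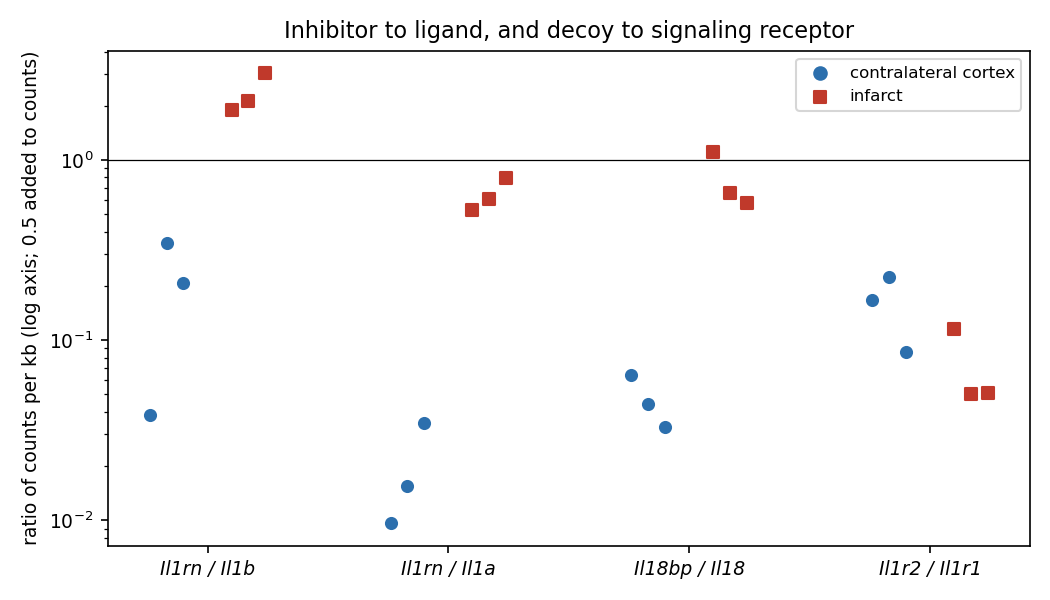
Ratios of counts per kilobase of exon in each library, on a log axis with 0.5 added to each count, for *Il1rn* to *Il1b*, *Il1rn* to *Il1a*, *Il18bp* to *Il18* and *Il1r2* to *Il1r1*. Infarcts (red squares) lie above contralateral cortices (blue circles) for *Il1rn* to *Il1a* and *Il18bp* to *Il18*, the regions overlap for *Il1r2* to *Il1r1*, and the contralateral points of *Il1rn* to *Il1b* rest on 0 to 4 counts and are not interpreted.

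*Il1r1* (ENSMUSG00000026072, chromosome 1, 40225080 to 40317257), the signaling receptor for both IL-1 agonists, had the highest level per kilobase among the 4 receptor genes in infarcts. It had 110, 124, and 77.7 CPM in infarcts, against 16.2, 14.9, and 16.2 CPM on the contralateral side. All infarcts were higher by more than the spread between libraries, with a fold change of 6.59 (95% interval 4.86 to 8.95, adjusted *p* = 2.22e-06, edgeR). Endothelial cells and fibroblasts are known to express this receptor. Of 6 endothelial genes, 3 were upregulated, with summed expression of 497 to 717 CPM in infarcts and 228 to 254 CPM in contralateral cortices. All 6 fibroblast genes were upregulated, with summed expression of 6930 to 8680 CPM compared with 146 to 189 CPM, and the part of either cell type in the change of *Il1r1* was not tested.

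*Il1r2* (ENSMUSG00000026073, chromosome 1, 40074079 to 40125231), the decoy receptor that binds IL-1 without signaling, had 47, 25, and 17 counts in infarcts, against 15, 15, and 4 counts on the contralateral side. In CPM these were 3.74, 1.84, and 1.16 compared with 0.784, 0.977, and 0.369, so the regions were narrowly separated. The fold change of 3.03 (95% interval 1.31 to 6.99, adjusted *p* = 0.0248, edgeR) was the least certain of the 8 calls. The call was lost without infarct 1 (log2 fold change 1.04, adjusted *p* = 0.107), without contralateral cortex 1 (adjusted *p* = 0.0668) or 3 (adjusted *p* = 0.0828), and when tested against a fold change of 2 (adjusted *p* = 0.142). Relative to *Il1r1*, the decoy transcript was at 0.115, 0.0503, and 0.0512 in infarcts and at 0.166, 0.225, and 0.0855 in contralateral cortices, and these ranges overlapped (*p* = 0.2, exact two-sided permutation test).

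*Il1rap* (ENSMUSG00000022514, chromosome 16, 26581704 to 26730117), the partner chain shared by the receptors for IL-1, IL-33, and IL-36, had 53.2, 50.7, and 63.6 CPM in infarcts, against 67.5, 67.5, and 48.5 CPM on the contralateral side. The highest and the lowest of the 6 values were both contralateral. The fold change was 0.912 with a 95% interval of 0.695 to 1.20 (adjusted *p* = 0.525, edgeR). With library totals in place of TMM, the log2 fold change was 0.07 instead of -0.13. Neurons express a separate isoform of this chain, and gene counts do not separate the isoforms. Neuronal genes fell in the same tissue, and their part in the level of *Il1rap* was not tested.

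*Il1rl1* (ENSMUSG00000026069, chromosome 1, 40429570 to 40465415) encodes ST2, the receptor for IL-33, which exists in a membrane form and as a soluble decoy that gene counts do not separate. It had 73, 220, and 147 counts in infarcts, against 19, 3, and 7 counts on the contralateral side, or 10.7 ± 5.20 and 0.611 ± 0.400 CPM (SD, *n* = 3). The lowest infarct, at 5.81 CPM, lay above the highest contralateral cortex, at 0.992 CPM, and the infarcts differed widely from each other. *Il1rl1* rose by 4.07 ± 0.55 on the log2 scale (edgeR, adjusted *p* = 2.05e-04), and by 4.72 when contralateral cortex 1 was left out. Mast cells, regulatory T cells and group 2 innate lymphoid cells are known to carry ST2. *Gata3*, a transcription factor of such lymphoid cells, had 17, 58, and 19 counts in infarcts and 0 in every contralateral library. *Foxp3*, which defines regulatory T cells, had 10, 4, and 6 counts in infarcts and did not pass the filter. *Cpa3*, a mast cell protease, had 11, 28, and 42 counts, compared with 1 or 2 in contralateral cortices. Across infarcts, *Il1rl1* and *Gata3* were thus highest in infarct 2, *Foxp3* in infarct 1, and *Cpa3* in infarct 3. *Areg*, *Il5*, and *Il13*, cytokine genes of cells that respond to IL-33, had at most 3 counts in any infarct library, where a change was not detectable at this depth.

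**Figure D4:**
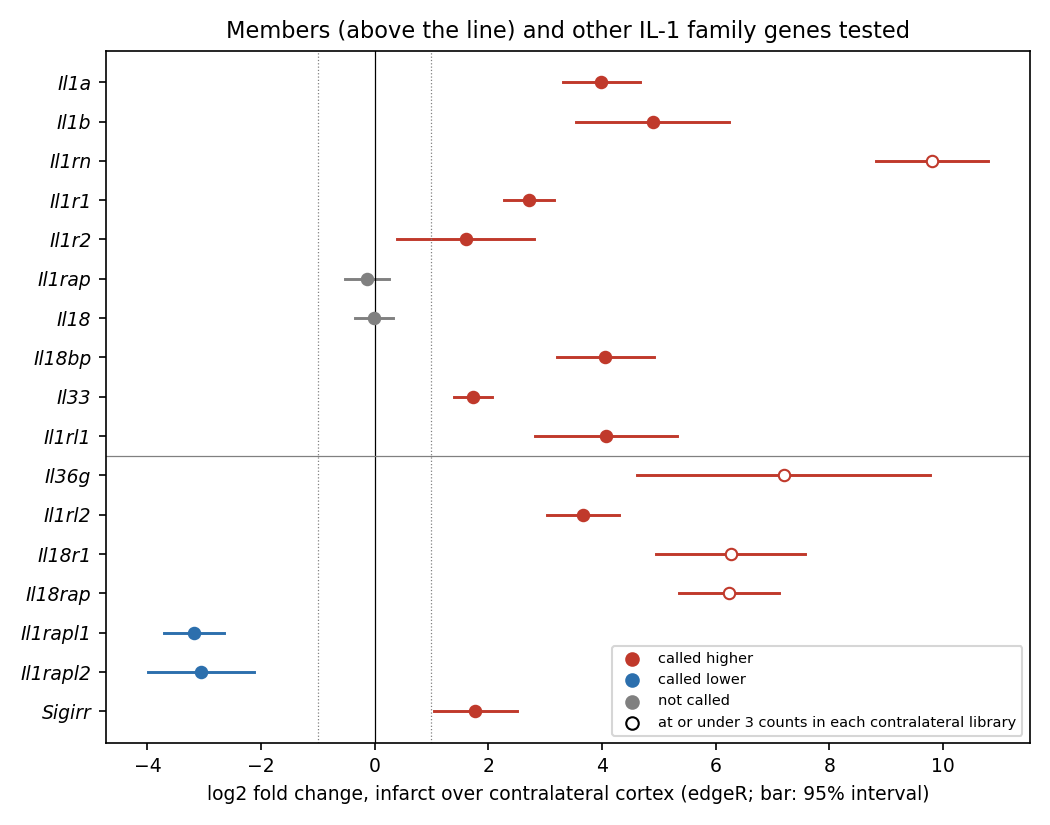
Log2 fold change of infarct over contralateral cortex with its 95% interval for the 10 members, above the horizontal line, and for the 7 other IL-1 family genes that were tested. Red points were called higher, blue lower and gray neither, dotted lines mark a fold change of 2, and open points had 3 counts or fewer in each contralateral library, so that their position is not a bound on the fold change.

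The rest of the family was described from a list of 11 genes, of which 7 passed the filter, 5 were upregulated and 2 were downregulated. *Il18r1* and *Il18rap*, the binding and partner chains of the IL-18 receptor, had 115, 116, and 71 and 197, 169, and 128 counts in infarcts 1, 2, and 3, and neither exceeded 3 counts in any contralateral library. Infarcts exceeded contralateral cortices by at least 35.8-fold and 58.6-fold (edgeR, adjusted *p* = 1.12e-05 and 9.79e-07), whereas the ligand *Il18* was not called. *Klrb1c*, a marker of the NK cells that carry this receptor, had 115, 97, and 58 counts in infarcts and 0 in every contralateral library. From the same list, *Tbx21* had 26, 15, and 8 counts in infarcts and 1 in every contralateral library. *Ifng*, which encodes interferon-γ, had 2, 6, and 0 counts in infarcts and 0 in every contralateral library. Neither *Tbx21* nor *Ifng* passed the filter. *Il1rl2*, the receptor for IL-36, had 16.4 ± 3.14 CPM in infarcts, against 1.30 ± 0.321 CPM on the contralateral side, a difference of 3.67 on the log2 scale. Among IL-36 ligands, *Il36g* was at least 6.10-fold higher, with 24, 16, and 11 counts in infarcts, against 0 on the contralateral side, and *Il36a* and *Il36b* had 0 counts in all 6 libraries. *Sigirr*, a receptor that dampens signaling, had a log2 fold change of 1.77.

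*Il1rapl1* and *Il1rapl2*, relatives of *Il1rap* that act in synapse formation, were downregulated, with log2 fold changes of -3.18 and -3.06. *Il1rapl1* had 103, 164, and 233 counts in infarcts, against 1938, 1835, and 1170 counts on the contralateral side. In infarcts, its values followed the order of the summed neuronal genes, which were 636, 900, and 1650 CPM in infarcts 1, 2, and 3. Sums of astrocyte and oligodendrocyte genes had this order too. The part of any of these cells in the change of *Il1rapl1* was not tested. Along the chromosomes, *Il1r2*, *Il1r1*, *Il1rl2*, *Il1rl1*, *Il18r1*, and *Il18rap* lie within 478 kilobases of chromosome 1 (40074079 to 40551705). All 6 of these receptor genes were upregulated, compared with 25.7% of all tested genes. Outside this cluster, *Sigirr* on chromosome 7 was also upregulated, *Il1rap* on chromosome 16 was not called, and *Il1rapl1* and *Il1rapl2* on the X chromosome were lower.

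Genes that process the ligands and pass the signal were taken from fixed lists. All 9 genes of ligand processing and release were upregulated, compared with 25.7% of all tested genes, and their median log2 fold change was 3.86. *Casp4*, a caspase that senses bacterial lipid, had the largest log2 fold change of the list, at 6.02, with 23.4 ± 3.94 CPM in infarcts, against 0.345 ± 0.139 CPM on the contralateral side (SD, *n* = 3). *Nlrc4*, an inflammasome sensor, had 110, 93, and 73 counts compared with 1, 1, and 3 counts, and was at least 32.7-fold higher. *Pycard*, the inflammasome adaptor, and *Gsdmd*, which forms the pore through which IL-1β leaves the cell, had log2 fold changes of 4.37 and 4.33. *Casp1*, which cuts the precursors of IL-1β and IL-18, had 373, 426, and 302 counts in infarcts, against 60, 25, and 28 on the contralateral side, and rose by 3.46 ± 0.28 on the log2 scale (edgeR, adjusted *p* = 4.76e-06). Genes for processing were therefore higher in the same infarcts in which *Il18* itself was not called.

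Of 17 genes in the signal chain below the receptors, 8 were upregulated, 0 were downregulated and 9 were not called, with a median log2 fold change of 0.85. The shares over all tested genes were 25.7% called higher and 20.9% called lower. *Irak3*, which encodes a kinase relative that restrains the pathway, and *Irak4*, the first kinase of the chain, had the largest log2 fold changes, at 4.02 and 3.79. *Myd88*, the adaptor that all signaling receptors of the family share, had 26.5 ± 3.26 CPM in infarcts, against 2.82 ± 0.528 CPM on the contralateral side. The NF-κB subunits *Nfkb1* and *Rela* had log2 fold changes of 2.81 and 2.05. *Traf6*, *Map3k7*, *Chuk*, *Ikbkb*, and *Ikbkg*, which link the IRAK kinases to NF-κB, were among the genes that were not called, with log2 fold changes of 0.82, 0.21, 0.57, 0.85, and 0.03. Of these, *Traf6*, *Chuk*, and *Ikbkb* had adjusted *p* values of 9.12e-04, 0.0418, and 0.00203 (edgeR) and missed the call by their fold change.

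Of 16 genes known to respond to IL-1, 13 were tested and 12 were upregulated, compared with 25.7% of all tested genes. *Mmp3*, a matrix protease, had 7476, 5614, and 4757 counts in infarcts, against 0, 1, and 11 counts on the contralateral side. *Lcn2*, an acute phase protein, had 1198, 767, and 2435 counts compared with 1, 5, and 2 counts, and the chemokine gene *Ccl2* had 182, 211, and 197 counts compared with 2, 4, and 0 counts. *Cxcl1*, a chemokine gene for neutrophils, had 15, 22, and 33 counts compared with 0 in each contralateral cortex, a difference of at least 8.05-fold. *Ptgs2*, which encodes cyclooxygenase-2 and is also expressed by cortical neurons, was the tested gene that was not called, with a log2 fold change of 0.36 (adjusted *p* = 0.0866, edgeR). *Il6* had at most 3 counts in any library, so a change was not detectable at this depth. These genes also respond to other signals, and their dependence on IL-1 was not tested.

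**Figure D5:**
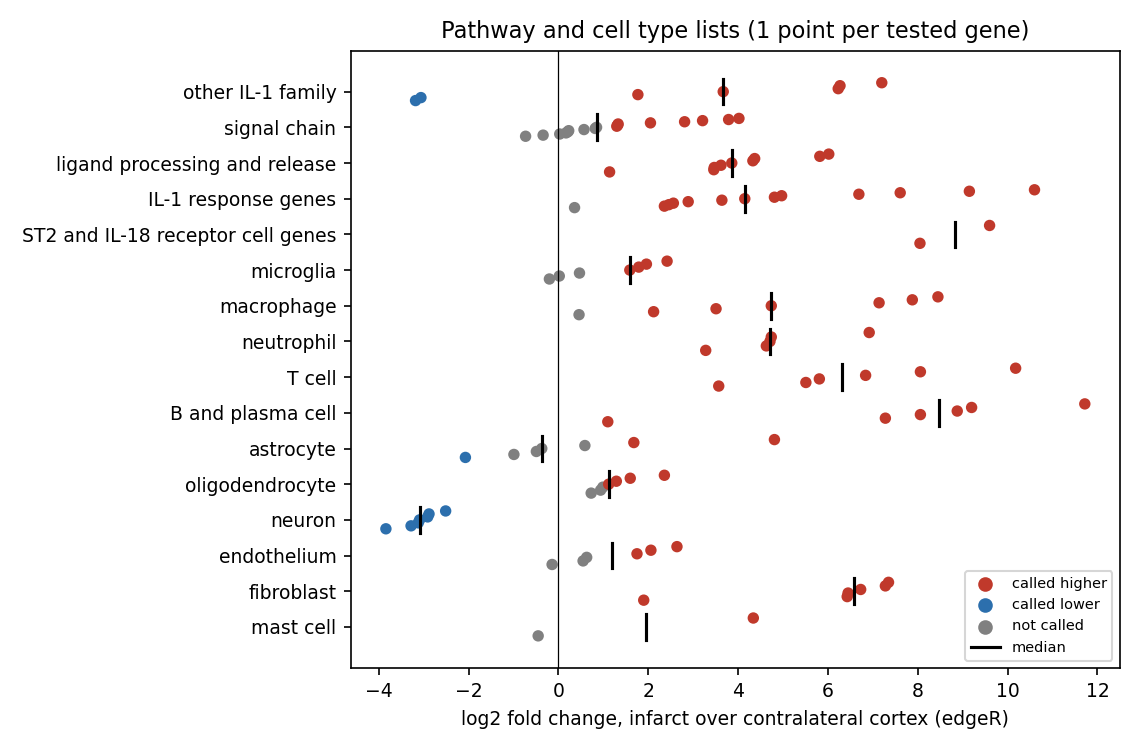
Log2 fold change of infarct over contralateral cortex for each tested gene of the 5 pathway lists and of the cell type marker lists, with red points called higher, blue lower, gray neither, and a bar at each list's median. The genes for ligand processing all lie above 1, whereas the signal chain holds 8 genes called higher and 9 that were not called.

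Many markers of the myeloid cells that make IL-1 were higher in the same infarcts, though not all. Of 7 microglial genes, 4 were upregulated and 3 were not called, whereas 25.7% of all tested genes were called higher. The microglial sum was 1380, 1220, and 1240 CPM in infarcts 1, 2, and 3, against 362 to 447 CPM in contralateral cortices. Its order across infarcts was not that of *Il1a* and *Il1b*. Of 7 macrophage genes, 6 were upregulated. Their summed expression was 8920, 7670, and 5350 CPM in infarcts 1, 2, and 3 and 52.0 to 65.6 CPM in contralateral cortices. Most of this sum was *Lyz2*, and without it the sum was 683 to 1070 CPM compared with 38.3 to 45.4 CPM. The macrophage sum had the same order across infarcts as *Il1a* and *Il1b*. Sums of T cell, B and plasma cell, neutrophil, and endothelial genes had this order too, so it was not particular to macrophage genes. Of 7 neutrophil genes, 5 passed the filter and all 5 were upregulated, with summed expression of 83.6 to 121 CPM compared with 5.95 to 7.94 CPM, whereas *Ly6g*, a defining neutrophil marker, had 0, 2, and 0 counts in infarcts. Of 7 mast cell genes, 2 passed the filter, of which *Cpa3* was upregulated and *Kit* was not called (log2 fold change -0.45). The sum of this list, most of it *Kit*, was 35.2 to 68.9 CPM in infarcts compared with 62.2 to 70.7 CPM, and without *Kit* it was 2.23 to 5.87 CPM compared with 0.0651 to 0.261 CPM. *Ms4a2*, which encodes a chain of the IgE receptor, had 0, 3, and 0 counts. All 6 tested T cell genes and all 6 B and plasma cell genes were upregulated. The part of these cells in the levels of the IL-1 family was not tested.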

How the data were processed

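RNA was isolated from 3 infarcts and 3 contralateral cortices of saline-perfused mice and sequenced as paired reads on a stranded poly(A) library. According to the methods and the submitters' processing notes, the authors used bcl2fastq 2.19, Trimmomatic 0.32, STAR 2.5.2b with GRCm38, and htseq-count, and deposited raw counts per gene. The counter's strand setting and annotation are not given in the sources used here. Of 46078 gene IDs, 45143 matched GENCODE M21, which gave names and exon lengths. The 5 entries that name no gene were left out, and 65.7% to 73.4% of counts fell on genes. Counts were tested in edgeR 4.0.16 (quasi-likelihood, TMM, filterByExpr, R 4.3.3) with Benjamini-Hochberg adjustment over all tested genes, after the code was tested on simulated data. Alternatives used DESeq2 1.42.0 and limma 3.58.1. List sums without the most abundant gene were added after seeing the data. Members and lists were chosen with earlier results of these data known. Up to 6 genes a list were to be named by the largest changes among called genes (not every such gene is described). *Casp1*, *Foxp3*, *Areg*, *Il5*, *Il13*, *Ifng*, *Tbx21*, *Ptgs2*, *Il6*, the marker genes, and the signal chain genes that were not called were named after their values were seen. Lower bounds on a fold set each contralateral library to 3 counts.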

Additional observations from a re-analysis of the deposited data

How the results depend on the processing

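The number of upregulated members stayed at 8, except that requiring at least 10 counts in every library left 4, because *Il1b*, *Il1rn*, *Il1r2*, and *Il1rl1* then dropped out of the test, and that 7 remained in the test against a fold change of 2 and at the lowest as single libraries were left out, each time through the loss of *Il1r2*. The same filter left 2 higher and 1 lower among the other IL-1 family genes, 5 processing genes, 6 response genes, and 0 of the genes of ST2 and IL-18 receptor cells. That last list had 2 upregulated genes of 8, 4 in DESeq2 and 5 with no filter on low counts. Without a fold change threshold, 11 genes of the signal chain were higher instead of 8, with *Traf6*, *Ikbkb*, and *Chuk* added, and 1, *Tab3*, was lower (log2 fold change -0.73). The *Il18* log2 fold change of -0.01 became 0.19 with library totals, 0.02 with the filter of 10 counts and 0.01 with no filter, and ran from -0.06 to 0.04 as single libraries were left out. That of *Il1rap* became 0.07 with library totals. Deviations of same-numbered libraries correlated at -0.19, 0.101, and 0.0011, and those of differently numbered libraries at -0.238 to 0.178. No pairing by replicate number was thus visible. With 3 libraries per region and unlike tissues, this cannot decide whether an infarct and a cortex shared a mouse. With a replicate block, 8 members were higher and all genes gave 3945 higher and 3222 lower, and the log2 difference of the *Il18bp* to *Il18* ratio stayed at 4.05 (exact sign-flip permutation *p* = 0.25, the smallest possible). Depth limits *Il1a*, *Il1b*, *Il1rn*, *Il1r2*, and *Il1rl1*, whose contralateral libraries held at most 19 counts.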

Other observations

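The members did not all peak in the same infarct. *Il1a*, *Il1b*, *Il18bp*, and *Il1r2* were highest in infarct 1, *Il1rn*, *Il1r1*, and *Il1rl1* in infarct 2, and *Il33* and *Il1rap* in infarct 3. Among tested genes, the pattern across the 6 libraries most like that of *Il33* was that of *Aqp4*, which encodes a water channel of astrocyte endfeet, with a root mean square distance of 0.0841 between centered log2 CPM values. *Aqp4* had a log2 fold change of 1.68, close to the 1.73 of *Il33*. The nearest pattern to *Il1r1* was that of *Cast*, an inhibitor of calpain proteases, at 0.0905. These distances describe 6 libraries and carry no test.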
